A study of Mus musculus with 2 samples.

Results

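Squamous cells are the flattened, terminally differentiated cells at the tear-facing surface of the corneal epithelium, and the cells described here are those that the authors' deposited cell table labels Squam. Of 17808 cells, 2934 carry that label, or 16.5%. They came from 2 libraries, with 1587 Squam cells among 9605 control cells (16.5%) and 1347 among 8203 diabetic cells (16.4%). Each library was a pool of 4 corneas taken from 2 C57BL/6J mice, all male and aged 20 weeks. The diabetic mice had been given 1 dose of streptozotocin (STZ) at 160 mg/kg, which kills the insulin-producing beta cells of the pancreas, and their blood glucose stayed above 250 mg/dL over the 12 week study. The control mice were given sodium citrate buffer. In both pools the epithelium was lifted off enzymatically, dissociated with trypsin and run on Chromium 3′ v3.1 chemistry, per the labels' protocols.

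The corneal epithelium renews itself upward: basal cells divide on the basement membrane, their daughters pass through the wing cell layers, and squamous cells are shed from the surface into the tears. The surface cells seal the eye with tight junctions, carry a glycocalyx of membrane mucins that holds the tear film, and make proteases, antimicrobial proteins and precursors of the cornified envelope. Targets of interferon and of the transcription factor NF-kappa-B belong to the innate defence that barrier epithelia are known for.

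Counts of unique molecular identifiers (UMIs, 1 per captured RNA molecule) were summed over the Squam cells of each library and scaled to that library's Squam total as CPM, the usual depth-scaled unit. Molecules are tagged at their 3′ end, so CPM has no length term, and levels are compared within a gene only. The Squam sums held 39010792 UMIs in control and 30583406 in diabetic, with medians of 22382 and 21047 UMIs per cell. The libraries share 18 cell barcodes, and 1 control Squam cell carries one of them. Neither group has a replicate library, so no test was run, every interval covers counting error only, and differences between the pools of mice cannot be told apart from differences between treatments.

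All 3 marker genes of the label were highest in Squam cells in both libraries. Psca, a small cell-surface protein of the Ly6 family anchored by a lipid, stood at 28929.5 and 40529 CPM in control and diabetic Squam cells. Across single control cells Psca ran from 12218 CPM at the 10th percentile to 48086 CPM at the 90th, and across diabetic cells from 18071 to 64411 CPM. With each cell thinned to 5000 UMIs, all 1541 control and 1308 diabetic Squam cells had a Psca UMI. Basal cells, which should lack it, had one in 29.9% and 17.6% of cells. Whether free RNA gave these UMIs was not tested.

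Cldn23, a claudin of tight junctions, stood at 445 and 423 CPM in Squam cells, and the next label, Conj, at 144 and 142 CPM. It was detected in 75.1% of control and 75.4% of diabetic Squam cells, against 1.06% and 0.259% of Basal cells. Ndrg1, a gene of epithelial differentiation and stress, stood at 146 and 210.3 CPM and was detected in 43.2% of control and 49.9% of diabetic Squam cells, against 1.86% and 2.55% of Basal cells. In both libraries the markers thus set Squam cells apart from Basal cells, and the label itself was drawn from these counts.

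The genes that set Squam cells furthest apart from the other labels were led by Lce3a, S100a7a and Prss22. After 10 CPM was added to each value, 196 of 13846 genes (1.42%) were at least 2-fold higher in Squam cells than in any other label in both libraries. This is a description, since the labels were drawn from the same counts. Lce3a, a late cornified envelope gene, led the ranking at 3013 and 3067 CPM. The next label held 56.4 CPM of it in control (Wing) and 6.27 CPM in diabetic (Conj). S100a7a, of the psoriasin family, stood at 418 and 467 CPM and was under 10 CPM in Wing, Conj and Basal cells.

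The serine protease gene Prss22 stood at 1579.9 and 1869 CPM, and Prss8, which encodes the membrane-anchored protease prostasin, at 276 and 253 CPM. Cd274, the gene of the immune checkpoint ligand PD-L1, stood at 162 and 119 CPM, whereas Conj cells held 5.04 and 1.79 CPM and Wing cells 2.74 and 0.849 CPM. Hbegf, a ligand of the EGF receptor, stood at 1082 and 1098 CPM, and Dusp5, a phosphatase that acts on ERK, at 373 and 352 CPM. The other leading genes included Lce3b and Lce3f, Alpl (tissue-nonspecific alkaline phosphatase), Slc39a4 (a zinc importer), Chac1 (an enzyme that degrades glutathione) and Cnfn (cornifelin, of the cornified envelope). Reads of Lce3 genes, which are close copies within chr3:92925287-92993426 (mm10, protein-coding), could be split between them. Of the 20 leading genes, Cnfn alone passed the rule of size between the libraries given below, from 64.4 to 110.3 CPM. That depended on the setting: Ndrg1 and Lce3b passed as higher with median-of-ratios scaling or with Squam and Wing cells together. Alpl passed as lower with thinned cells. Cd274 and Lce3f passed as lower with thinned cells, or with equal weight per cell, where the intervals are not used.

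**Figure D1:**
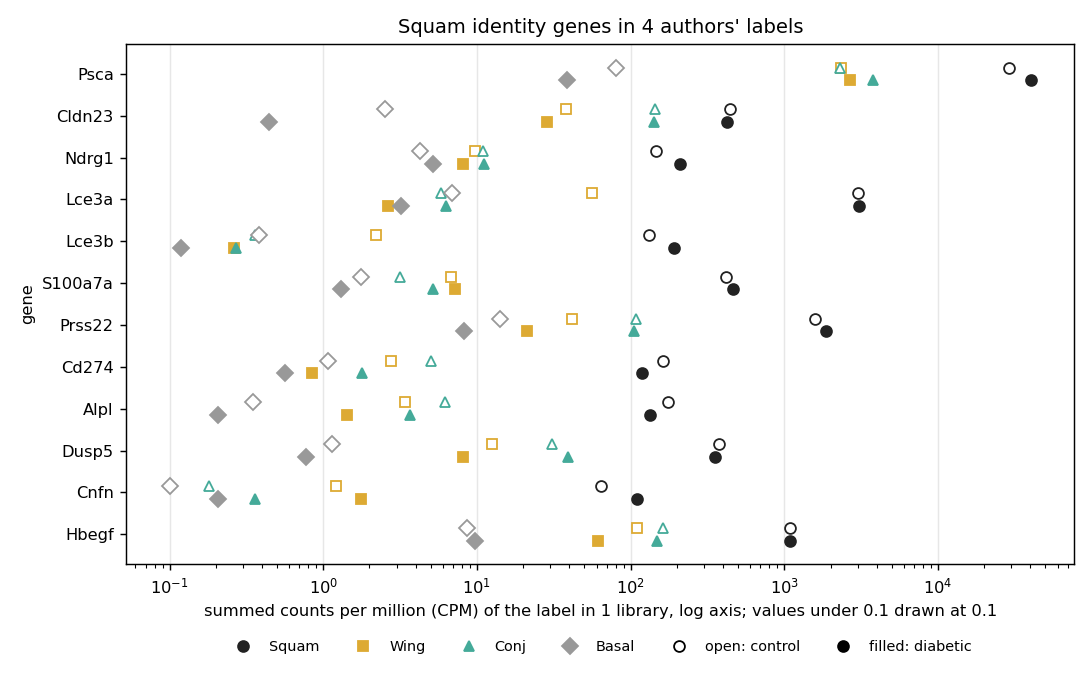
CPM (log axis) of 12 Squam identity genes in Squam (circles), Wing (squares), Conj (triangles) and Basal cells (diamonds) of the control (open) and diabetic (filled) library. In each gene the Squam values lie furthest to the right, and Lce3a in Wing cells differs between control (56.4 CPM) and diabetic (2.62 CPM).

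Squam cells were not uniform, and Lce3a divided them. At 5000 UMIs per cell, 412 of 1541 control cells (26.7%) and 334 of 1308 diabetic cells (25.5%) had an Lce3a UMI. Among them the median was 24 Lce3a UMIs in control and 17 in diabetic, and 65 and 55 cells had exactly 1 UMI, which free RNA can also give. Before thinning, cells with Lce3a had medians of 20927 and 20940.5 UMIs, and cells without it 23277 and 21439. The division was made after the values were seen and is a cut on 1 gene, so both sides are ranges and not cell types.

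S100a7a, Prss22 and Hbegf were higher in the cells with Lce3a in both libraries. In cells with and without Lce3a, S100a7a stood at 1412 and 128 CPM in control, and at 1337 and 182 CPM in diabetic cells. Prss22 stood at 4482 and 803 CPM in control, and at 5202 and 772 CPM in diabetic cells. Hbegf stood at 2350.5 and 699 CPM in control, and at 2552 and 615 CPM in diabetic cells. Krt12, the keratin of the corneal epithelium, ran the other way, at 8139 and 13358 CPM in control, and at 6423 and 14950.3 CPM in diabetic cells. Msln and Atp1b1 stood at similar levels on both sides, and Ifit3 was lower in cells with Lce3a, with values given below. Over single cells, Spearman's rho of Psca with Prss22 was 0.51 in control and 0.49 in diabetic, and rho of Psca with the corneal crystallin gene Aldh3a1 was -0.60 and -0.55. These coefficients describe 1541 and 1308 cells that share a library and a depth, and carry no test.

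**Figure D2:**
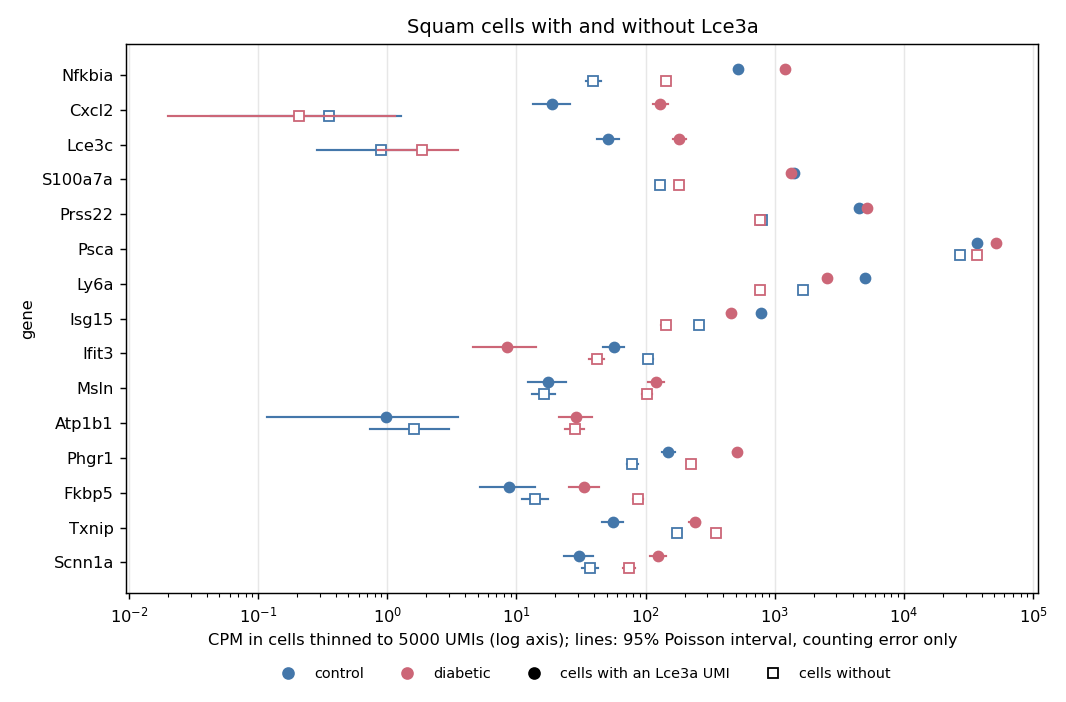
CPM (log axis) of 15 genes in Squam cells thinned to 5000 UMIs, for cells with (circles) and without (open squares) an Lce3a UMI in the control (blue) and diabetic (red) library; lines are 95% Poisson intervals for counting error only. S100a7a, Prss22 and Nfkbia lie to the right in cells with Lce3a, whereas Msln and Atp1b1 lie at a similar level in both kinds of cell within a library.

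The diabetic and control sums were compared by a rule of size: at least 50 counts over both libraries, a CPM ratio of at least 1.5 either way, and 95% Poisson intervals that do not overlap. Of 10313 genes measured, 185 (1.79%) were higher in diabetic Squam cells and 799 (7.75%) lower. The median log2 ratio over these genes was -0.08, with 4015 above and 6298 below 0. Median-of-ratios scaling shifted every log2 ratio up by 0.09 and gave 274 higher and 569 lower genes, so that higher genes made up 32.5% of the calls and not 18.8%. Cells over 60000 UMIs numbered 40 in control and 12 in diabetic and held 7.69% and 2.54% of the UMIs. Without them 196 genes were higher and 654 lower.

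**Figure D3:**
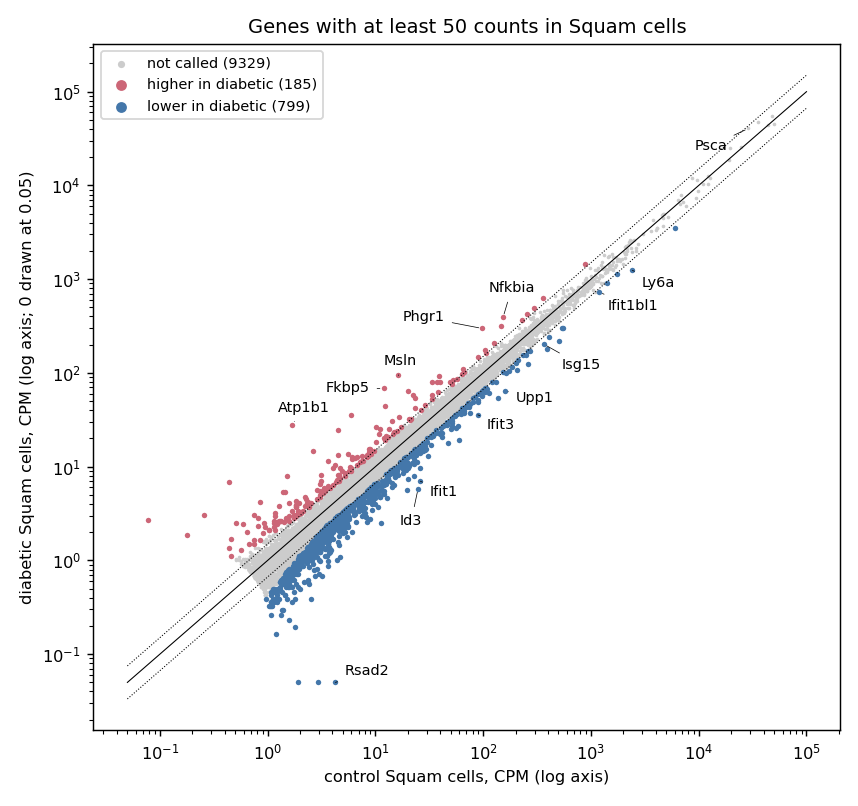
CPM in control (x axis) and diabetic (y axis) Squam cells, both on log axes, for the 10313 genes with at least 50 counts; the solid line marks equality and dotted lines a ratio of 1.5 either way. The 185 genes called higher (red) lie above the upper dotted line and the 799 called lower (blue) below the lower one, and Psca lies between the lines.

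Msln, Fkbp5 and Atp1b1 led the genes with the largest increases. Msln, the gene of the mucin-binding surface protein mesothelin, rose from 16.4 to 93.9 CPM, a ratio of 5.74 (5.27 to 6.27). It was detected in 8.70% (7.34 to 10.2) of control and 32.7% (30.2 to 35.3) of diabetic Squam cells. The ratio was 6.89 in cells with Lce3a and 6.31 in cells without, so the increase lay on both sides of the Lce3a cut. Msln stood at 0.266 and 2.11 CPM in Wing cells and 6.21 and 31.5 CPM in Conj cells.

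Atp1b1, the beta subunit of the sodium pump, rose from 1.69 to 28.2 CPM, a ratio of 16.6 (12.9 to 21.7) on 66 control and 861 diabetic counts. Scnn1a, the alpha subunit of the epithelial sodium channel, rose from 37.3 to 79.4 CPM, a ratio of 2.13 (1.99 to 2.27). Wing cells held 24.9 and 22.5 CPM of Scnn1a, and with both labels added together the gene no longer passed. Of 15 measured genes of ion and water transport these 2 rose and 2 fell, beside 1.79% higher and 7.75% lower over all genes. The lower genes were Fxyd3, a regulator of the sodium pump (205 to 109 CPM), and Slc4a7, a bicarbonate transporter (1.56 to 0.589 CPM). Slc4a7 was not called without the cells over 60000 UMIs. The water channel gene Aqp5 stood at 10856 and 10340.5 CPM.

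Phgr1, a small gene of surface epithelia rich in proline, histidine and glycine codons, rose from 98.3 to 298 CPM, a ratio of 3.03 (2.92 to 3.15). It was detected in 27.2% of control and 49.8% of diabetic Squam cells. Other genes with the largest increases were Krt75, a keratin (39.2 to 92.1 CPM), Pacsin3, of membrane trafficking (22.4 to 58.0 CPM), Las1l, of ribosome biogenesis (39.6 to 80.2 CPM), the cell cycle inhibitor gene Cdkn1c (4.49 to 24.6 CPM) and Zfp36l2, of mRNA decay (33.3 to 81.0 CPM). Msln, Atp1b1, Phgr1 and these 5 genes passed under all 10 alternative settings, though some settings could not change these calls. The limit of 10% mitochondrial counts removed no Squam cell, and minimums of 10 and 200 counts drop no gene with over 200.

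Glucocorticoid response genes moved both ways. Fkbp5, a co-chaperone and target of the glucocorticoid receptor, rose from 11.9 to 68.3 CPM, a ratio of 5.75 (5.19 to 6.37). Tsc22d3, the gene of the glucocorticoid-induced leucine zipper, rose from 20.2 to 63.5 CPM. Of 17 measured genes of the list 3 rose, Zbtb16 being the third on 17 control and 42 diabetic counts, and 5 fell (Dusp1, Mt1, Mt2, Klf9 and Lcn2), beside 1.79% higher and 7.75% lower over all genes. The median log2 ratio was 0.04, and Zbtb16 was not called in 4 of the 10 alternative settings, thinned cells among them. Dusp1, a phosphatase of stress kinases, fell from 405 to 243 CPM, and the metallothionein gene Mt2 from 51.5 to 30.4 CPM. Lcn2, an iron-scavenging defence gene, fell from 9.48 to 4.90 CPM, with its 370 control counts in 21 cells.

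Txnip, whose protein binds thioredoxin and whose gene is known to respond to glucose, rose from 148 to 319 CPM, a ratio of 2.16 (2.09 to 2.23). It was detected in 43.5% of control and 69.5% of diabetic Squam cells. Beside the same shares of all genes, of 17 measured glucose and insulin response genes Txnip and Klf10 (4.54 to 13.4 CPM) rose and Sesn3 fell (9.79 to 6.47 CPM), though Sesn3 was not called with median-of-ratios scaling. Arrdc4, a relative of Txnip, stood at 291 and 338 CPM. Fkbp5 and Txnip were also higher in diabetic cells of other labels. Wing cells held 32.2 and 93.5 CPM of Fkbp5 and 117 and 261 CPM of Txnip, and Basal cells held 5.47 and 48.0 CPM and 239 and 500.1 CPM.

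Inflammatory signals release NF-kappa-B from its inhibitor, and many of its targets are chemokines or feedback inhibitors. Of 24 measured genes of NF-kappa-B feedback and cytokines 6 rose and none fell in diabetic Squam cells, beside 1.79% and 7.75% of all genes. Of the 24 genes, 13 had a ratio above 1 and 11 below, and the median log2 ratio of the list was 0.11. In Wing cells none of 24 rose and 4 fell, beside 3.93% and 2.59% of 12080 genes, and the median was -0.22 beside 0.04 over all genes. The difference between the labels was not tested.

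Nfkbia, the gene of the inhibitor, rose from 153 to 392 CPM, a ratio of 2.56 (2.48 to 2.64), and stood at 36.6 and 46.1 CPM in Wing cells. It was detected in 23.4% (21.3 to 25.6) of control and 35.8% (33.2 to 38.4) of diabetic Squam cells, and in 20.5% and 24.1% of Basal cells. It stood at 523 and 1208 CPM in cells with Lce3a, and at 39.3 and 145 CPM in cells without. Nfkbia was therefore higher in diabetic cells on both sides of the Lce3a cut. Tnfaip3, the gene of the feedback inhibitor A20, rose from 13.4 to 25.4 CPM. Tnip3, of an A20-binding protein, rose from 3.15 to 8.21 CPM but was not called once cells were thinned. Relb, an NF-kappa-B subunit, rose from 4.64 to 7.0 CPM, close to the limit of 1.5.

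The chemokine genes rested on few cells. Cxcl2, a neutrophil attractant, rose from 6.00 to 35.4 CPM, but its 1082 diabetic counts came from 21 cells, 1 of which held 482. Its 234 control counts came from 9 cells, 1 of which held 126. Cxcl1 rose from 1.28 to 3.83 CPM, with 60 of 117 diabetic counts in 1 cell, and was not called once cells were thinned. Members that did not pass included Il18 (284 and 199 CPM), Tnf (56.9 and 41.9 CPM) and Il1a (38.9 and 41.4 CPM). Such concentration was uncommon: 11 of the 185 higher genes had over 50% of their diabetic counts in 10 cells, and 19 of the 799 lower genes over 50% of their control counts.

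The Nfkbia promoter is shown because Nfkbia holds the largest count of the called NF-kappa-B genes. The RefSeq sequence (GRCm38.p6) is that of the 250 bases before the start site, chr12:55492648-55492897 on the minus strand, next to the protein-coding gene. Capitals mark matches on either strand to GGGANNTTC, letters found in many NF-kappa-B sites.

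Nfkbia: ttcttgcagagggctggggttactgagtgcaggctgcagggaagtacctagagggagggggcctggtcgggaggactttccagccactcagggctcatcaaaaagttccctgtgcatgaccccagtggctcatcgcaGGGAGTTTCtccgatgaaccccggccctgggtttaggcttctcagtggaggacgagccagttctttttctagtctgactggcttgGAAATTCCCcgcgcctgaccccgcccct

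The matches lie 113 and 28 bases before the start. Of all 32851 promoters of that length 3.23% held at least 1 match, as did 2.84% of those of genes measured in Squam cells. Of 25 promoters of measured list genes 7 did. Some genes have several promoters, and the gene counts that follow take a match in any of them. Promoters were at hand for 19 of the 24 list genes and 6 of them held a match: 3 of 5 higher genes (Nfkbia, Cxcl1 and Cxcl2) and 3 of 14 genes that did not pass. A match describes letters in the window, not binding.

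Interferon-stimulated genes were lower in diabetic Squam cells. Interferons switch these genes on through response elements (ISREs) in their promoters, and the products block viral RNA and protein synthesis. Of 28 measured genes of the list 14 fell and none rose, beside 7.75% and 1.79% of all genes, and all 28 had a ratio below 1. The median log2 ratio was -0.57, beside -0.08 over all genes. In Wing cells 7 of 26 fell and none rose, beside 2.59% and 3.93% of 12080 genes. The median there was -0.30, beside 0.04 over all genes.

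Isg15, a ubiquitin-like modifier and one of the 196 Squam-high genes, fell from 364 to 203 CPM, or 1.80-fold (1.74 to 1.85) lower. The translation inhibitor genes Ifit1, Ifit3 and Ifit3b fell from 26.1 to 7.0 CPM, from 89.2 to 35.7 CPM and from 59.8 to 19.0 CPM. Their relative Ifit1bl1 fell from 1188 to 728 CPM. The Ifit genes lie within chr19:34583531-34650009 (mm10, protein-coding), and reads of near-identical copies such as Ifit3 and Ifit3b could be split between them. Ifit3 was detected in 23.4% (21.3 to 25.6) of control and 11.3% (9.65 to 13.2) of diabetic Squam cells, and in 0.846% and 0.475% of Basal cells. It stood at 56.8 and 8.38 CPM in cells with Lce3a, and at 105 and 41.7 CPM in cells without, and was lower in diabetic cells on both sides of the cut.

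Zbp1, a sensor of viral nucleic acid, fell from 23 to 7.88 CPM, and Bst2, which tethers virions, from 5.51 to 2.29 CPM. Rsad2, the gene of viperin, had 166 control counts and none in diabetic, at least 43.4-fold lower against a floor of 3 counts over the diabetic cells. Of these 166 counts, 128 came from 1 cell and the rest from 5 others, so Rsad2 describes 6 control cells. Members that did not pass included Irf7 (157 and 135 CPM), Oasl2 (182 and 173 CPM) and Trim25 (176 and 151 CPM). Beside 7.75% of all genes, of 16 measured genes of MHC class I presentation 2 fell, the immunoproteasome subunit gene Psmb9 (99.2 to 63.8 CPM) and B2m (30.4 to 20.2 CPM), and neither was called with median-of-ratios scaling.

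The promoters of Ifit1 and Isg15 are shown because each repeats the response element near the start. Both are RefSeq sequences (GRCm38.p6) of the 250 bases before the start site, Ifit1 at chr19:34640639-34640888 on the plus strand and Isg15 at chr4:156200819-156201068 on the minus strand. Capitals mark matches on either strand to GAAANNGAA, letters of the ISRE, and overlapping matches run together.

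Ifit1: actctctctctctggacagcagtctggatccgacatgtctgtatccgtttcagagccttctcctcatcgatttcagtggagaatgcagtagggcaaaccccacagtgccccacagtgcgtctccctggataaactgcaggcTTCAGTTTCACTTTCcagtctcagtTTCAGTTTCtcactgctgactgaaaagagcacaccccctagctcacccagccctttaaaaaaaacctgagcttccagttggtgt

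Isg15: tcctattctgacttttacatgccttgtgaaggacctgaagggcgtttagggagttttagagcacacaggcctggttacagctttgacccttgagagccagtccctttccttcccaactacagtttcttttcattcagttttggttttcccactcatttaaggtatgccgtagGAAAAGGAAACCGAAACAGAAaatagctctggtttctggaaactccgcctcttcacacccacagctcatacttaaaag

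The matches lie 109, 103 and 84 bases before the start in Ifit1, and 78, 72 and 66 bases before it in Isg15. Of all 32851 promoters 7.13% held at least 1 match, as did 5.96% of those of genes measured in Squam cells. Of 23 promoters of measured list genes 12 did. The gene counts that follow again take a match in any promoter of a gene. Promoters were at hand for 21 of the 28 interferon genes and 11 held a match: 9 of 11 lower genes and 2 of 10 genes that did not pass.

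**Figure D4:**
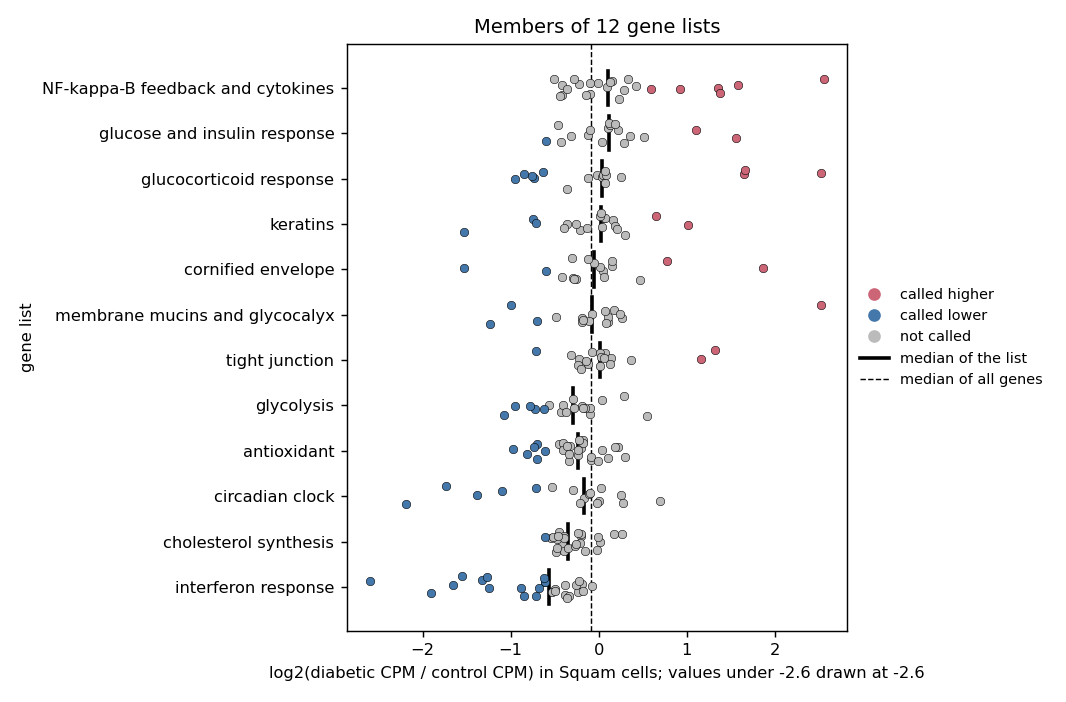
Log2 ratio of diabetic to control CPM in Squam cells (x axis) for the measured members of 12 gene lists, red where called higher, blue where called lower and grey otherwise, with list medians as thick bars and the median of all genes (-0.08) as a dashed line. The interferon list lies furthest left (median -0.57), and the NF-kappa-B list has 6 members called higher and none called lower.

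Genes of the Ly6 and uPAR family, which encode small surface or secreted proteins, moved both ways, beside 1.79% higher and 7.75% lower over all genes. Psca had a ratio of 1.40, short of 1.5, and its ratio was 1.42 in cells with Lce3a and 1.37 in cells without. Ly6a, the gene of stem cell antigen 1, fell from 2422 to 1243 CPM, or 1.95-fold (1.93 to 1.97) lower, and was detected in 70.3% of control and 51.5% of diabetic Squam cells. Plaur, the urokinase receptor gene, rose from 1.51 to 7.98 CPM, with 244 diabetic counts in 105 cells. Of 16 measured members Plaur and Lypd1 rose and Ly6a, Ly6c1, Ly6d and Lypd3 fell. Ly6c1 and Ly6d were not called once cells were thinned. The secreted members Slurp1 (9515 and 7353 CPM) and Lypd2 (19258 and 18593 CPM) did not pass. Psca (chr15:74714839-74717069), Slurp1 (chr15:74724318-74728034) and Ly6a (chr15:74994877-74998031) are protein-coding genes on 1 chromosome in mm10.

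Junction genes moved both ways, beside 1.79% higher and 7.75% lower over all genes. Of 19 measured tight junction genes Cldn1 (3.15 to 7.06 CPM) and Cldn12 (1.18 to 2.94 CPM) rose and Cldn3 (131 to 79.9 CPM) fell, with a median log2 ratio of 0.02, and Cldn12 was not called once cells were thinned. Cldn7 (871 and 700.2 CPM), the scaffold gene Tjp1 (388 and 407 CPM) and occludin, Ocln (41.1 and 43.0 CPM), did not pass. Of 17 measured desmosome and adherens junction genes none rose and 3 fell: Cdh1, the gene of E-cadherin (54.5 to 35.2 CPM), Nectin1 (16.3 to 8.14 CPM) and Dsg1b (8.92 to 5.66 CPM). Cdh1 and Dsg1b were not called with median-of-ratios scaling or without cells over 60000 UMIs.

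Mucin and envelope genes moved both ways, beside 1.79% higher and 7.75% lower over all genes. Of 17 measured genes of the glycocalyx, Msln rose and 3 fell, the membrane mucin gene Muc15 (30.8 to 13.1 CPM) and the glycosyltransferase genes St6galnac2 and Galnt12. The membrane mucin genes Muc4 (2327 and 2627 CPM), Muc20 (348 and 373 CPM) and Muc1 (89.8 and 64.3 CPM) did not pass, nor did Lgals3 (4528 and 4892 CPM), whose galectin crosslinks mucins. Of 17 measured cornified envelope genes Cnfn and Lce3c (12.3 to 44.8 CPM) rose and Crct1 (235 to 156 CPM) and Ly6d (1.23 to 0.425 CPM) fell. Of the Lce3c counts in diabetic cells, 66.4% were in 10 cells. Crct1 was not called with median-of-ratios scaling. Ly6d, on 48 control and 13 diabetic counts, was not called once cells were thinned or without likely doublets. The envelope genes Ppl (1169 and 1304 CPM) and Evpl (647 and 672 CPM), for periplakin and envoplakin, did not pass.

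The corneal keratin genes Krt12 and Krt5 did not pass, with Krt12 at 12230.4 and 12520.3 CPM and Krt5 at 4073 and 3518 CPM. The counts of the next 3 lists stand beside 1.79% higher and 7.75% lower over all genes. Of 19 measured keratin genes Krt4 (230.2 to 363 CPM) and Krt18 rose, and Krt23 (164 to 99.9 CPM), Krt8 and Krt17 fell. Krt4 was not called with equal weight per cell or once cells were thinned. Krt18 (29 control and 46 diabetic counts), Krt8 and Krt17 were also not called once cells were thinned. Of the control Krt17 counts 74.0% were in 10 cells. Of 30 measured surface proteases and inhibitors none rose and 7 fell, among them the membrane serine protease gene Tmprss11d (58.2 to 27.2 CPM) and the antiprotease gene Slpi (51.3 to 29.2 CPM). Of 24 measured genes of the lipid barrier 3 rose, among them the lipoxygenase gene Alox12e (6.43 to 12.3 CPM), and 4 fell, among them Fabp5, a fatty acid carrier (113 to 60.5 CPM).

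The glycolysis, antioxidant and clock lists held lower calls only, beside 7.75% lower over all genes. Of 25 cholesterol synthesis genes 22 had a ratio below 1, beside 6298 of 10313 over all genes, with a median log2 ratio of -0.35. Of 19 glycolysis genes 5 fell, of 27 antioxidant genes 6 and of 17 clock genes 5, among them the clock output gene Dbp (47.0 to 18.1 CPM) and Nr1d1 (56.1 to 26.1 CPM), the gene of REV-ERB alpha. Of 14 genes of polyols, osmolytes and glycation, Nfat5, a regulator of the response to osmotic stress (21.5 to 32.5 CPM), and the inositol transporter gene Slc5a3 (0.590 to 2.45 CPM) rose, and the aldo-keto reductase gene Akr1b7 (391 to 178 CPM) fell. Slc5a3 was not called once cells were thinned. Akr1b3, mouse aldose reductase, stood at 286 and 216 CPM. Beside 1.79% higher and 7.75% lower of all genes, of 16 heat shock genes Cryab, a small heat shock protein, rose from 889.6 to 1466 CPM, and its relative Hspb1 was 1 of 3 that fell (1757 to 1148 CPM), though not with median-of-ratios scaling.

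The stress and growth lists had mostly lower calls, beside 1.79% higher and 7.75% lower over all genes. Of 21 hypoxia response genes 1 rose, the vasoactive peptide gene Adm (2.36 to 4.15 CPM, with 90.6% of its diabetic counts in 10 cells, and not called once cells were thinned), and 4 fell, among them Vegfa (3.82 to 1.34 CPM), the gene of vascular endothelial growth factor A. Of 22 genes of the unfolded protein response 3 fell, among them the asparagine synthetase gene Asns (8.33 to 2.55 CPM). Of 15 EGF family genes 3 fell, among them the ligand gene Areg (20.0 to 9.65 CPM). Of 22 immediate early genes 1 rose, Gadd45g (10.1 to 18.4 CPM), and 3 fell, among them Egr1 (33.0 to 17.2 CPM), while Fos stood at 102 and 139.7 CPM and Junb at 677 and 694 CPM. None of 32 ribosomal protein genes and none of 30 nuclear genes of oxidative phosphorylation passed, with median log2 ratios of -0.19 and -0.23.

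Other genes with the largest decreases were Upp1, uridine phosphorylase (158 to 64.3 CPM), Tmsb10, of an actin-binding peptide (139 to 54.5 CPM), and Fgfbp1, whose product binds fibroblast growth factors (262 to 123 CPM). Id3, an inhibitor of helix-loop-helix factors, fell from 24.9 to 5.82 CPM, while Wing cells held 13.4 and 14.1 CPM of it. Lgals7, an epithelial galectin gene, fell from 25.9 to 9.61 CPM. These 5 genes passed under all 10 alternative settings, of which the mitochondrial limit and the changed minimum counts could not alter these calls.

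Genes lower in diabetic Squam cells were mostly genes with more CPM in Wing than in Squam cells. Of the 799 lower genes 530 (66.3%) had over 2-fold more in Wing cells, beside 33.4% of the 10313 measured genes and 7.03% of the 185 higher genes. Among the 426 genes with over 4-fold more in Wing cells 202 (47.4%) were lower and none was higher, with a median log2 ratio of -0.61. Among the 333 genes with over 4-fold more in Squam cells 27 (8.11%) were higher and 34 (10.2%) lower, with a median of 0.01. Squam values enter both quantities, and this grouping was chosen after the values were seen.

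**Figure D5:**
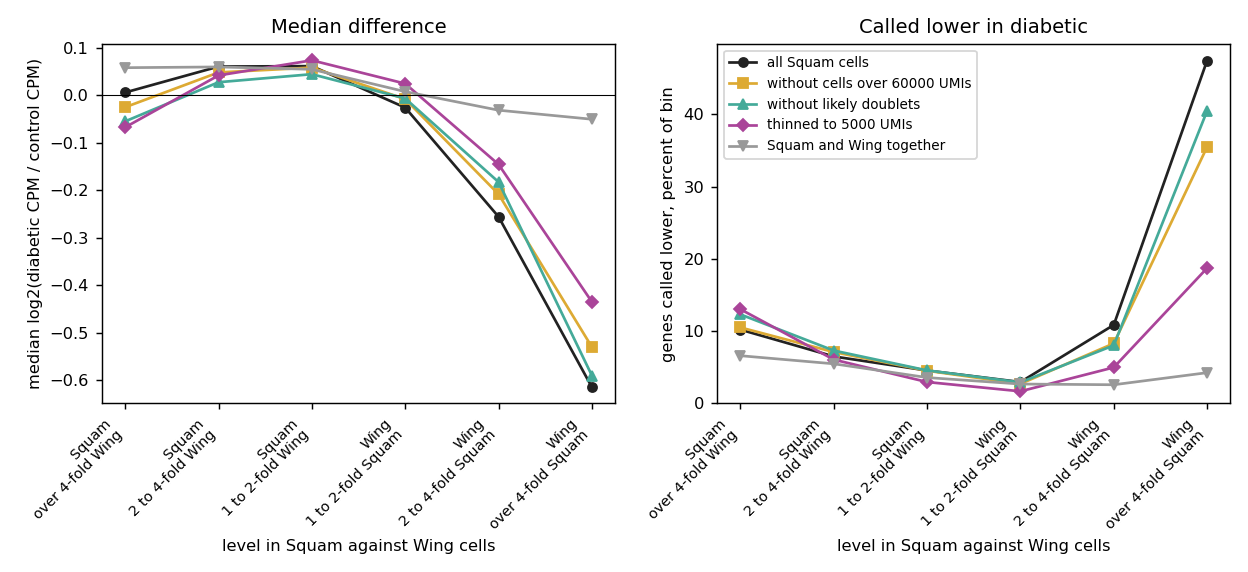
Genes measured in Squam cells in bins of their Wing to Squam ratio (x axis), with the median log2 ratio of diabetic to control CPM (left) and the percent called lower (right) for 5 ways of counting. With all Squam cells the median is near 0 where Squam holds more and reaches -0.61 in the 426 genes with over 4-fold more in Wing cells, of which 47.4% were called lower.

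The gradient varied with the way of counting. For genes with over 4-fold more in Wing cells the median log2 ratio was -0.53 without cells over 60000 UMIs, -0.59 without likely doublets, -0.43 with cells thinned to 5000 UMIs and -0.38 with equal weight per cell. With Squam and Wing cells added together it was -0.05. Likely doublets, the cells at the top 8% of doublet scores in each library, made up 156 of 1587 control and 89 of 1347 diabetic Squam cells. The 5 Wing markers, all detected, summed to 4438 and 4630.0 CPM in Squam cells, of which the keratin gene Krt6a held 3780.1 and 4231 CPM. The other 4 had lower values in diabetic cells: Dsg1a (106 and 72.2 CPM) and Dsc2 (209.9 and 154 CPM) did not pass, and Lypd3 (80.5 to 49.6 CPM) and Fgfbp1 fell. The 6 Basal markers summed to 269.9 and 199.6 CPM. The 6 TAC2 markers summed to 25.4 and 13.9 CPM, of which Hist1h2ap held 12.8 and 4.68 CPM. The 6 Conj markers summed to 5645 and 6037 CPM in Squam cells, of which the keratin gene Krt13 held 4754 and 4956 CPM. The same 6 summed to 2240 and 2399 CPM in Wing cells and to 14731 and 19487 CPM in Conj cells. The Wing label covers 30.2% of the cells in the control library and 24.1% in the diabetic one. What part the Wing share, deep cells or doublets have in these values was not tested.

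Lists differed in how much they overlapped with that gradient, beside 66.3% of all 799 lower genes with over 2-fold more in Wing cells. Of the 14 lower interferon genes none had over 2-fold more in Wing cells, and 12 had no more there than in Squam cells. None of the 28 measured interferon genes had over 2-fold more in Wing cells whatever its call, so the 14 lower ones could not. Of the 5 lower clock genes 4 did have over 2-fold more in Wing cells, as did 4 of 5 lower glycolysis genes, 5 of 6 lower antioxidant genes and all 3 lower genes of the desmosome and adherens junction list. So did all 3 lower glycocalyx genes, all 3 lower heat shock genes and the 2 lower ion transport genes. Of 7 lower surface proteases and inhibitors 4 did. Whatever their call, 11 of 17 clock, 13 of 19 glycolysis and 13 of 27 antioxidant genes had over 2-fold more in Wing cells. So had 11 of 17 desmosome and adherens junction genes and 3 of 17 glycocalyx genes. The same held for 8 of 16 heat shock, 5 of 15 ion transport and 7 of 30 protease and inhibitor genes. Differences between these shares were not tested. Among the other genes with the largest decreases, Tmsb10, Lgals7 and Fgfbp1 had over 2-fold more in Wing cells, and Upp1 and Id3 did not. The lower tight junction gene, Cldn3, had no more in Wing than in Squam cells. Pan-leukocyte markers summed to 0.590 and 0.719 CPM, with Ptprc at 0. The antigen presenting list summed to 44.3 and 42.1 CPM, of which Cd68, a lysosomal gene, held 43.8 and 42.0 CPM. The neutrophil list summed to 91.6 and 99.1 CPM, of which S100a9, a gene epithelia also make, held 90.03 and 96.92 CPM, and Ly6g stood at 0.128 and 0 CPM. The stromal keratocyte list summed to 68.1 and 64.5 CPM, nearly all of it Aldh1a3 (68.0 and 64.5 CPM), and Dcn was at 0 in both libraries.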

How the data were processed

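Single-cell RNA of 2 pooled libraries was used. The authors deposited raw UMI counts as whole numbers for each gene in each cell. The submitters' processing notes name Cell Ranger 5.0.0, Seurat 4 and mm10, with no role or order. How cells were filtered and clustered is not given in the sources used here. The cell table of the authors gave the labels.

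Counts were summed per label and library and divided by the sum's total (CPM). A gene was called by the rule of size: 50 counts, a ratio of 1.5, and exact Poisson intervals (95%) that do not overlap. Intervals of ratios and shares are exact binomial intervals. Shares of cells used cells thinned to 5000 UMIs, leaving out 46 control and 39 diabetic Squam cells below that depth. Scrublet's own threshold called 0 doublets and so had not worked; no cell was removed, and the top 8% of scores served as an alternative. The script was tested on simulated data. Computation ran in scanpy 1.11.5, pandas 2.3.3, scipy 1.17.1 and numpy 2.4.6 under Python 3.11.15.

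Genes were named by rank: the 20 leading identity genes and the 3 markers, 15 genes per direction with 20 CPM or more, and up to 3 called members per direction of each of 34 lists, plus list members that did not pass. Some genes that the rule names are not reported here. Isg15, Ifit1bl1, Bst2, Tnfaip3, Relb, Mt1, Slpi and Lypd3 were named after their values were seen. The members and lists were chosen with earlier results of these data known. In all, 10 alternatives changed the scaling, the minimum count, the cells kept or their weight. Equal weight per cell has no Poisson interval, so its calls rest on the ratio and the minimum count alone. The limit of 10% mitochondrial counts removed no Squam cell. Positions are from GENCODE M21 and promoters from RefSeq.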

Additional observations from a re-analysis of the deposited data

Results flagged for a closer look

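Cenpf, a kinetochore gene of dividing cells, and Ly6d moved in opposite directions in Squam and Wing cells, and the difference was not tested. The log2 ratio of Cenpf was -2.13 in Squam cells, on 173 control and 31 diabetic counts, and 0.94 in Wing cells. The log2 ratio of Ly6d was -1.53 in Squam cells, on 48 control and 13 diabetic counts, and 1.01 in Wing cells. In control Squam cells 46 of the 173 Cenpf counts came from 1 cell.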

How the results depend on the processing

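With 1 library per group no library could be left out. No paired analysis was possible because each group has 1 library and no test was run. The main rule gave 185 higher and 799 lower of 10313 genes measured. A minimum of 200 counts gave 480 lower of 8008, and thinning to 5000 UMIs gave 296 lower of 7529. Squam and Wing cells together gave 415 higher and 383 lower of 12555. Equal weight per cell gave 377 higher, but by the ratio and the minimum count alone, without the Poisson intervals. Without cells over 60000 UMIs 175 of the 185 and 636 of the 799 genes were still called. After thinning 77 of the 185 and 201 of the 799 were still called. With Squam and Wing cells together 130 and 201 were still called. Thinning turned the log2 ratio of Bax to 0.085 and of Ccnb2 to 0.24. Squam and Wing cells together turned Bax to 0.18, Cenpf to 0.26, Klf9 to 0.031, Lrig1 to 0.017, Ly6d to 0.82, Mt2 to 0.057, Slc4a7 to 0.25 and Timp3 to 0.033. The G2 and M phase list had no measured member after thinning, so it has no median there. Fewer counts remain after thinning, and the joint sum holds other cells. Beyond that the cause was not tested. Depth limits genes near 50 counts, and shares of cells hold at 5000 UMIs only.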

Other observations

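The 196 Squam-high genes were also followed in other labels. Their median log2 ratio of diabetic to control was 0.03 in Squam cells, beside -0.08 over all genes. In Conj cells it was 0.23 beside 0.02 over all genes (173 of the 196 measured), and in Wing cells -0.21 beside 0.04 (186 measured). In TAC2 cells it was -0.18 beside 0.04 (142 measured) and in Basal cells -0.13 beside 0.01 (143 measured). In TAC1 cells it was -0.04 beside 0.01 (133 measured).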
